A study of Mus musculus with 6 samples.

Results

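Calcium that enters a cell is first bound by buffer proteins and then carried out by pumps in the plasma membrane, and the genes of both kinds were examined here in the newborn mouse inner ear. There were 8 such genes, 4 for EF-hand calcium buffers (Ocm, Calb1, Calb2 and Pvalb) and the 4 of the plasma membrane calcium pump family (Atp2b1, Atp2b2, Atp2b3 and Atp2b4). They were taken by symbol, through the gene names of the GENCODE vM21 annotation, from the 39179 Ensembl genes in the deposited counts, and all 8 were found. The study compared RNA from the sensory epithelium of the cochlea, the organ of hearing, and of the vestibule, the organ of balance. Both groups were untreated C57Bl/6J mice at postnatal day 0, of both sexes pooled, with no altered allele. The study's methods describe 20 inner ears of 10 mice, giving 2.4 µg of cochlear and 1.5 µg of vestibular RNA, of which 450 ng went into each library, and 3 libraries were sequenced per tissue. The sources do not state that the 3 libraries of a tissue came from separate dissections, so the p-values measure the spread between libraries, which may be technical.

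Hair cells turn sound and head movement into electrical signals by opening channels through which potassium and calcium enter. EF-hand buffers bind calcium in a short loop between a pair of helices and shape how far and how long a calcium signal spreads. The pumps use ATP to push calcium out of the cell, passing through a state in which an aspartate carries the phosphate. In the inner ear, oncomodulin (encoded by Ocm) is best known from outer hair cells and from some vestibular hair cells, while calbindin, calretinin and parvalbumin (encoded by Calb1, Calb2 and Pvalb) are found in hair cells and in the neurons that contact them. The pump encoded by Atp2b2 sits in the hair bundle, and its loss in mice causes deafness and imbalance.

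The calcium-binding loops and the pump site are shown because the 8 genes are grouped by them, and because the related genes must be told apart by their reads. All are from the transcript with the longest coding sequence in GENCODE vM21 on GRCm38, written in the direction of the transcript, and each is 36 bases long. In the buffers the capitals mark the codons of the first and the last position of the loop, both of which hold an acidic residue that binds calcium. The paired loops of Ocm and Pvalb begin at codons 52 and 91 in both genes.
Ocm loop at codon 52 (chr5:144024433-144024468, minus strand, exon 3): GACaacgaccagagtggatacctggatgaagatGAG
Pvalb loop at codon 52 (chr15:78202526-78202561, minus strand, exon 2): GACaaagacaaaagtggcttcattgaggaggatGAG
Ocm loop at codon 91 (chr5:144020100-144023857, minus strand, joined from exons 4 and 5): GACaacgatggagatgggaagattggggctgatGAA
Pvalb loop at codon 91 (chr15:78191693-78201259, minus strand, joined from exons 3 and 4): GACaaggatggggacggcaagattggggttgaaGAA
Calb1 loop at codon 24 (chr4:15881468-15881983, plus strand, joined from exons 1 and 2): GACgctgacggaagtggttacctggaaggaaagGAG
Calb2 loop at codon 29 (chr8:110156971-110168053, minus strand, joined from exons 1 and 2): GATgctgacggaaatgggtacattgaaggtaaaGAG
A search for the loop pattern found 2 loops in Ocm (109 codons), 2 in Pvalb (110 codons), 4 in Calb1 (261 codons) and 5 in Calb2 (271 codons). Over the aligned coding bases Ocm and Pvalb were 59.7% identical and Calb1 and Calb2 65.9%.

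In the pumps the capitals mark the codon of the aspartate that takes the phosphate, shown for Atp2b1, Atp2b2 and Atp2b4.
Atp2b1 at codon 475 (chr10:98999811-98999846, plus strand, exon 10): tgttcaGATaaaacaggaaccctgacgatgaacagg
Atp2b2 at codon 499 (chr6:113789888-113789923, minus strand, exon 13): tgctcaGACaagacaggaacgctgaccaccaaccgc
Atp2b4 at codon 466 (chr1:133731798-133731833, minus strand, exon 10): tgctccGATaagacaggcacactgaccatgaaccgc
The coding sequences of the pumps, of 1205 to 1243 codons, were 72.2% to 78.2% identical between pairs, with Atp2b2 and Atp2b3 the closest pair. The longest run of identical bases was 56 among the pairs of pumps and 15 among the 2 pairs of buffers compared (Ocm with Pvalb, Calb1 with Calb2), both shorter than the reads of 100 bases. No full read could thus match both genes of a compared pair equally well within their annotated coding transcripts, over which the runs were sought. The annotated genes overlapping a member are non-coding and lie at Atp2b2 and Atp2b4, and those of them that were counted had a count of 0 in all 6 libraries.

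The counts on genes ran from 24464483 to 29225105 in the cochlear and from 25476572 to 33664793 in the vestibular libraries, so that 1 CPM, a count scaled to library size, stood for 24.5 to 33.7 counts. Hair cell markers were present in every library: the summed level of 13 of them was 751 to 1055 CPM in the cochlea and 1349 to 1667 CPM in the vestibule. Slc26a5, the motor protein of outer hair cells, reached 1.55 to 3.32 CPM in the cochlea and 0 to 0.149 CPM in the vestibule, but the other 3 outer hair cell markers (Ikzf2, Chrna10 and Lbh) had the higher mean in the vestibule, and the 4 summed to 76.1 to 92.7 CPM in the cochlea and 137 to 143 CPM in the vestibule. The libraries also held RNA of other cells, as 10 mesenchyme and cartilage markers summed to between 15322 and 24958 CPM. Cochlear replicate 3 differed from the other cochlear libraries in 2 marker lists: the sum of 10 neuron markers was 305 CPM there against 619 and 640 CPM, and that of 10 skeletal muscle markers was 345 CPM against 8.26 and 15.7 CPM. Red blood cell markers were highest in cochlear replicate 1, where 5 of them summed to 736 CPM against 340 and 292 CPM in the other cochlear libraries. Of the muscle markers 9 were counted in cochlear replicate 3, from Myh3 at 3.25 CPM to Acta1 at 147 CPM, while Tnnc2, a defining gene of fast muscle, was at 0 in all 6 libraries, unlike the rest of its list.

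Of the 8 genes, 3 buffer genes were higher in the cochlea (Calb1, Calb2 and Pvalb), 1 buffer gene and 1 pump gene were higher in the vestibule (Ocm and Atp2b4), and the remaining 3 pump genes did not pass the test. Differences were tested in edgeR by quasi-likelihood, with Benjamini-Hochberg adjustment over all 14723 genes that reached 1 CPM in 3 or more libraries, with an adjusted p below 0.05 counted as a call. All 8 genes passed that filter, and Ocm passed it on its vestibular libraries alone, so that its presence among the genes tested already required a high vestibular level. The same rule called 27.4% of all genes tested, 11.6% as higher in the cochlea and 15.8% as higher in the vestibule. This background rests in part on single libraries, as without vestibular replicate 2 925 cochlear and 1342 vestibular calls were made among 14224 genes. With all 6 libraries 57.6% of the calls were higher in the vestibule, and 68.8% without TMM scaling. Without that scaling the median log2 difference of all genes moved to 0.125, while the calls of the 8 genes did not change. The libraries of the tissues did not overlap for 6 of the 8 genes, as they did not for 41.8% of all genes tested. The median log2 difference, vestibule minus cochlea, was −0.29 over the 8 genes and 0.0048 over all genes. In bulk tissue, fewer cells of a type and less RNA per cell cannot be told apart, which holds for every difference given here.

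**Figure D1:**
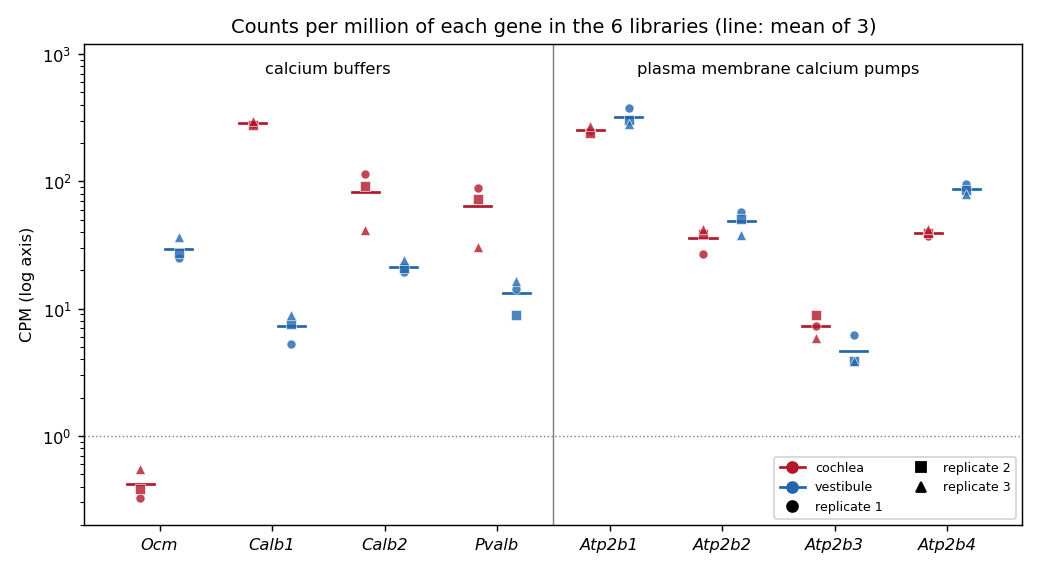
Level of the 8 genes in CPM (log axis) in the 3 cochlear and 3 vestibular libraries, with marker shape giving the replicate number, a bar at the mean of 3 and a dotted line at 1 CPM. Calb1 lies at 275 to 298 CPM in the cochlea and at 5.32 to 8.95 CPM in the vestibule, Ocm lies below 1 CPM in the cochlea and at 25.0 to 36.3 CPM in the vestibule, and most pump genes lie much closer together.

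Calb1 (ENSMUSG00000028222, chr4:15881264-15908064, plus strand) encodes calbindin, a soluble buffer. It was counted at 282, 275 and 298 CPM in the cochlear libraries and at 5.32, 7.59 and 8.95 CPM in the vestibular libraries. Every cochlear value was far above every vestibular value, and the 3 cochlear libraries lay close together, replicate 3 included. Calb1 was 42.4-fold higher in the cochlea, a log2 difference of −5.41 ± 0.24 (SE, n = 3 libraries per tissue) with a 95% interval of −5.95 to −4.87 (edgeR adjusted p = 3.79e-06).

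Ocm (ENSMUSG00000029618, chr5:144019804-144026670, minus strand) encodes oncomodulin, a small buffer of the parvalbumin family. It had 8, 11 and 16 counts in the cochlear libraries, or 0.327, 0.382 and 0.547 CPM, and 843, 700 and 925 counts in the vestibular libraries, or 25.0, 27.3 and 36.3 CPM. The cochlea was thus low but not at 0, and the tissues were widely apart. Ocm was 64.1-fold higher in the vestibule, a log2 difference of 6.00 ± 0.29 (SE, n = 3) with a 95% interval of 5.35 to 6.68 (edgeR adjusted p = 5.29e-06). Among the 8 genes these were the largest differences in each direction.

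Of the 13 hair cell markers 7 were higher in the vestibule, 1 was higher in the cochlea (Rasd2) and 5 did not pass, 61.5% called against 27.4% of all genes. Expressed as a percentage of the summed CPM of those markers, Ocm was 0.0436%, 0.0426% and 0.0519% in the cochlear and 1.50%, 1.95% and 2.69% in the vestibular libraries. Calb1 on the same scale was 37.6%, 30.7% and 28.3% in the cochlear and 0.319%, 0.543% and 0.663% in the vestibular libraries. Both kept their direction and did not overlap on this scale. Of 7 supporting cell markers 5 were higher in the cochlea, like Calb1, and none in the vestibule, 71.4% called against 27.4% of all genes. Hes5 among them passed the filter on its cochlear libraries alone. The sum of the 7 was 555 to 681 CPM in the cochlea and 303 to 325 CPM in the vestibule. Their part in the Calb1 difference was not tested.

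Calb2 (ENSMUSG00000003657, chr8:110137502-110168210, minus strand) encodes calretinin, a buffer close to calbindin. Its level was 115, 92.8 and 41.7 CPM in the cochlear and 19.3, 20.8 and 23.9 CPM in the vestibular libraries. The cochlear libraries were all higher, but replicate 3 lay well below the other cochlear libraries, while the vestibular values were close to each other. Calb2 was 4.23-fold higher in the cochlea (log2 difference −2.08 ± 0.34, SE, n = 3; 95% interval −2.85 to −1.31; edgeR adjusted p = 0.00204).

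Pvalb (ENSMUSG00000005716, chr15:78191114-78206400, minus strand) encodes parvalbumin, a buffer of fast-firing neurons and fast muscle. It was measured at 88.9, 72.6 and 30.4 CPM in the cochlear and at 14.2, 8.92 and 16.5 CPM in the vestibular libraries. Again cochlear replicate 3 was the lowest of its tissue, and it was also the library with the highest muscle marker sum. The part of muscle in the Pvalb level was not tested. Pvalb was 5.25-fold higher in the cochlea (log2 difference −2.39 ± 0.40, SE, n = 3; 95% interval −3.31 to −1.48; edgeR adjusted p = 0.00238).

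Some neuron markers were higher in the cochlea too. Of 10 such markers 4 were called there (Tubb3, Syt1, Stmn2 and Prph), none in the vestibule, and 6 did not pass, 40.0% called against 27.4% of all genes, with a median log2 difference of −1.62. Nefm, with a log2 difference of −0.039 (edgeR adjusted p = 0.957), was nearly level. The summed level of the 10 was 640, 619 and 305 CPM in the cochlear and 381, 143 and 181 CPM in the vestibular libraries. As a percentage of this sum, Calb2 was 17.95%, 15.0% and 13.7% in the cochlear and 5.06%, 14.6% and 13.2% in the vestibular libraries. On that scale the tissues overlapped for Calb2, and cochlear replicate 3 came close to the other cochlear libraries. Pvalb on the same scale was 13.9%, 11.7% and 9.97% in the cochlear and 3.72%, 6.25% and 9.14% in the vestibular libraries, and did not overlap. The part of the neuron content in the differences of Calb2 and Pvalb was not tested. Against the hair cell markers, Calb2 was 15.3%, 10.3% and 3.96% in the cochlear and 1.16%, 1.49% and 1.77% in the vestibular libraries, and Pvalb 11.8%, 8.09% and 2.88% and 0.850%, 0.638% and 1.22%. On that scale neither gene overlapped, and cochlear replicate 3 stayed well below the other cochlear libraries for both. Without cochlear replicate 3 the log2 difference was −2.42 for Calb2 and −2.74 for Pvalb.

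**Figure D2:**
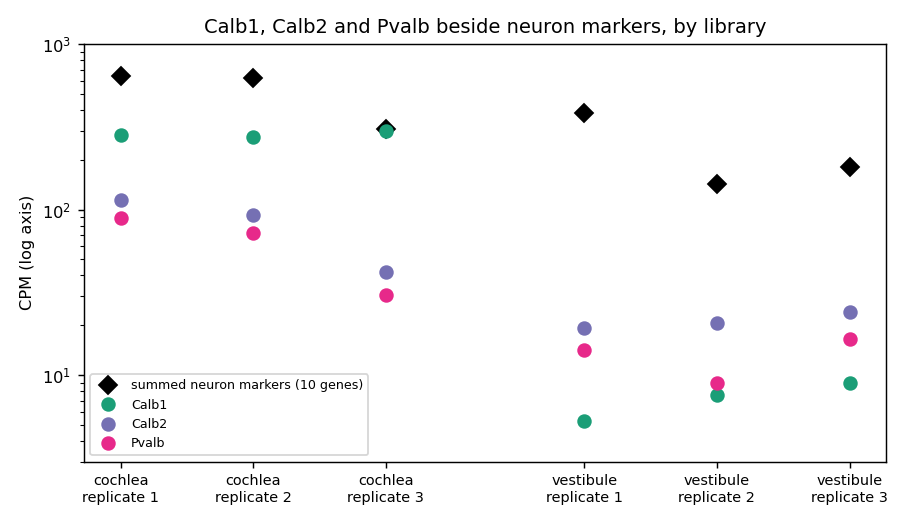
Level in CPM (log axis) of Calb1, Calb2 and Pvalb and of the sum of 10 neuron markers (diamonds) in each of the 6 libraries. In cochlear replicate 3 Calb2 (41.7 CPM), Pvalb (30.4 CPM) and the neuron markers (305 CPM) are all lower than in the other cochlear libraries, while Calb1 is at 298 CPM.

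Among the pumps Atp2b4 (ENSMUSG00000026463, chr1:133699457-133801041, minus strand) was the member that passed the test. It was measured at 37.4, 39.0 and 42.1 CPM in the cochlea and at 95.2, 86.2 and 78.9 CPM in the vestibule, and both sets of libraries were tight and far from each other. It was 2.02-fold higher in the vestibule, a log2 difference of 1.01 ± 0.12 (SE, n = 3) with a 95% interval of 0.74 to 1.28 (edgeR adjusted p = 0.000336). The pump it encodes is present in many tissues, among them smooth muscle and endothelium. Of 7 smooth muscle and endothelium markers 6 were higher in the vestibule and none in the cochlea, 85.7% called against 27.4% of all genes, with Myh11 past the filter on its vestibular libraries alone. Their sum ranged from 60.2 to 88.3 CPM in the cochlea and from 342 to 473 CPM in the vestibule. Other lists held calls in the same direction, with 3 of 5 Schwann cell markers and 3 of 4 dark cell markers higher in the vestibule. So were 7 of 13 hair cell markers, with 1 higher in the cochlea, and 4 of 10 mesenchyme and cartilage markers, with 2 higher in the cochlea. In that order 60.0%, 75.0%, 61.5% and 60.0% were called in either direction, against 27.4% of all genes. The Schwann cell markers summed to 502 to 659 CPM in the cochlea and 1089 to 1469 CPM in the vestibule, and the dark cell markers to 615 to 775 CPM and 981 to 1118 CPM. The mesenchyme and cartilage markers summed to 15322 to 22069 CPM in the cochlea and 20986 to 24958 CPM in the vestibule. The part of any of these cells in the Atp2b4 difference was not tested.

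Atp2b1 (ENSMUSG00000019943, chr10:98914406-99026143, plus strand) encodes the pump that nearly all cells carry. Its level was 247, 239 and 274 CPM in the cochlear and 375, 304 and 281 CPM in the vestibular libraries. The vestibular libraries were all above the cochlear libraries, but the nearest pair was 274 against 281 CPM. The log2 difference of 0.21 ± 0.13 (SE, n = 3) had a 95% interval of −0.086 to 0.51 and did not pass the test (edgeR adjusted p = 0.268). The log2 difference was 0.14 without vestibular replicate 1 and 0.34 without TMM scaling, and passed under neither.

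Atp2b2 (ENSMUSG00000030302, chr6:113743831-114042613, minus strand), the hair bundle pump gene, was at 27.1, 38.7 and 42.6 CPM in the cochlea and at 57.7, 50.8 and 37.6 CPM in the vestibule. The tissues overlapped, with the lowest vestibular library below 2 of the cochlear ones. The log2 difference was 0.30 ± 0.20 (SE, n = 3), and its 95% interval of −0.16 to 0.76 allowed both no difference and a rise of that size in the vestibule (edgeR adjusted p = 0.307). Leaving out single libraries moved it between 0.12, without cochlear replicate 1, and 0.44, without vestibular replicate 3, and it passed in none of these fits. Set against the hair cell markers, Atp2b2 made 3.61%, 4.31% and 4.04% of their summed CPM in the cochlear and 3.46%, 3.63% and 2.78% in the vestibular libraries, and on that scale it overlapped as well.

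Atp2b3 (ENSMUSG00000031376, chrX:73503086-73571005, plus strand) encodes a pump found mainly in neurons, and was the lowest of the pumps. It had 180, 256 and 171 counts in the cochlea, or 7.36, 8.89 and 5.85 CPM, and 210, 99 and 98 counts in the vestibule, or 6.24, 3.85 and 3.85 CPM. The ranges overlapped, as vestibular replicate 1 was above cochlear replicate 3. Those same libraries held the highest vestibular and the lowest cochlear neuron marker sum, but the part of the neuron content in the Atp2b3 values was not tested. The log2 difference of −0.79 ± 0.26 (SE, n = 3; 95% interval −1.39 to −0.20) just missed the threshold (edgeR adjusted p = 0.0532). It passed in 6 of 13 alternatives, with adjusted p from 0.0202 to 0.211 over all 13: with the size factors of DESeq2 (0.0484), with no filter on low counts (0.0311), by DESeq2 (0.0202), by edgeR's exact test (0.0267), without cochlear replicate 3 (0.0249) and without vestibular replicate 1 (0.0362). Its log2 difference stayed negative in all 13.

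**Figure D3:**
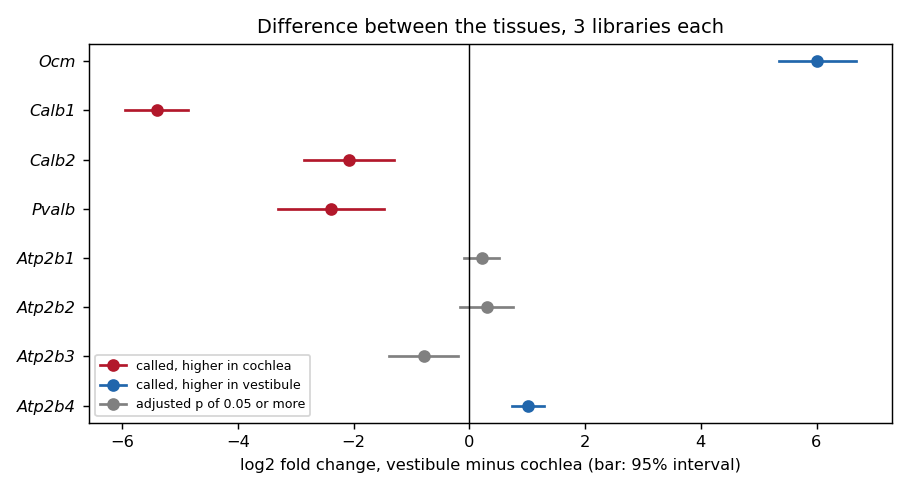
Log2 fold change (vestibule minus cochlea) of the 8 genes with the 95% interval as a bar, from edgeR on 3 libraries per tissue, coloured by the call at an adjusted p below 0.05. Ocm lies at 6.00 and Calb1 at −5.41, and Atp2b4 at 1.01 is the pump whose call passed, while the intervals of Atp2b1 and Atp2b2 cross 0.

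Pumps of this family are held in the membrane by a partner glycoprotein, neuroplastin (Nptn) or basigin (Bsg). Nptn averaged 165 CPM in the cochlea and 202 CPM in the vestibule, a log2 difference of 0.18 ± 0.12 (SE, n = 3; 95% interval −0.088 to 0.45), and did not pass (edgeR adjusted p = 0.297). Bsg averaged 605 and 749 CPM, a log2 difference of 0.19 ± 0.19 (SE, n = 3; 95% interval −0.25 to 0.63), and did not pass either (edgeR adjusted p = 0.509).

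To compare genes with each other, counts were divided by the merged exon length of each gene and the library size (RPKM). In the cochlea Pvalb (61.4 ± 29.0 RPKM, SD, n = 3), Calb1 (58.9 ± 2.41) and Calb2 (47.7 ± 21.5) came first and overlapped with their neighbours in that order. Atp2b1 followed at 16.7 ± 1.20 RPKM, then Atp2b4 at 3.23 ± 0.196 and Atp2b2 at 2.86 ± 0.639, which overlapped, then Atp2b3 at 1.53 ± 0.315 and Ocm at 0.571 ± 0.157. In the vestibule Ocm came first at 40.3 ± 8.14 RPKM, followed by Atp2b1 at 21.0 ± 3.22, and by Pvalb at 12.7 ± 3.74 and Calb2 at 12.2 ± 1.35, which overlapped. Atp2b4 at 7.09 ± 0.665 and Atp2b2 at 3.86 ± 0.812 stood apart from their neighbours, and Calb1 at 1.50 ± 0.379 and Atp2b3 at 0.964 ± 0.286 closed the order and overlapped. Some places in this order depend on the gene length used. Atp2b1 has 15218 merged exon bases but a longest transcript of 7130, and in the authors' own RPKM it stood at 33.6 to 38.5 in the cochlea and at 39.4 to 52.7 in the vestibule. On the authors' scale Atp2b1 overlapped with Calb2 (29.3 to 80.5) and Pvalb (29.2 to 85.5) in the cochlea and with Ocm (34.2 to 49.6) in the vestibule, so that neither Ocm nor Atp2b1 could be placed first there.

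Summed over the 4 buffer genes, the level was 210, 180 and 115 RPKM in the cochlear and 59.9, 59.3 and 81.0 RPKM in the vestibular libraries. The buffers together were thus 2.53-fold higher in the cochlea without overlap. The sum over the 4 pump genes ran the other way, at 23.0, 23.8 and 26.0 RPKM in the cochlea and 38.3, 31.9 and 28.7 RPKM in the vestibule, 1.36-fold higher in the vestibule and also without overlap. On the log2 scale the pump sum differed by 0.44, and by 0.32 with TMM-scaled library sizes. The two-sided exact permutation test gave p = 0.1 for each sum, the smallest that 3 against 3 libraries allow.

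The mix of buffers differed too, most in the shares of Ocm and Calb1. Ocm made up 0.383 ± 0.232% of the summed buffer RPKM in the cochlea and 60.3 ± 2.98% in the vestibule (SD, n = 3). Calb1 went the other way, with 27.7%, 31.5% and 53.3% in the cochlear libraries and 2.25 ± 0.408% in the vestibule. Cochlear replicate 3 was highest for the Calb1 share, being lowest for Calb2 and Pvalb. The cochlear share of Calb2 was 27.2 ± 5.68% and its vestibular share 18.5 ± 1.60%, and those of Pvalb were 34.9 ± 8.36% and 18.9 ± 4.17%.

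The mix of pumps shifted less. Atp2b1 was the main pump mRNA in both tissues, with 68.6 ± 2.40% of the summed pump RPKM in the cochlea and 63.8 ± 0.926% in the vestibule (SD, n = 3). The size of these shares depends on the gene length used, as Atp2b1 has 15218 merged exon bases but a longest transcript of 7130. In the authors' RPKM it was also the main pump, at 33.6 to 52.7 against at most 10.6 for any other. Atp2b4 had a cochlear share of 13.3 ± 0.0828% and a vestibular share of 21.6 ± 1.16%, and Atp2b3 of 6.35 ± 1.56% and 2.89 ± 0.445%. Atp2b2 held 11.7 ± 2.06% of the cochlear and 11.7 ± 1.16% of the vestibular sum, and its tissues overlapped (two-sided exact permutation p = 1). For the other 7 shares, of buffers and pumps, the tissues did not overlap, and the two-sided exact permutation test gave p = 0.1 each, the smallest possible, or 0.114 adjusted over the 8 shares. With the longest transcript as the gene length, the difference in share between the tissues was 5.10 percentage points for Atp2b4, against 8.33 with merged exons, and −1.92 for Atp2b3, against −3.46.

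**Figure D4:**
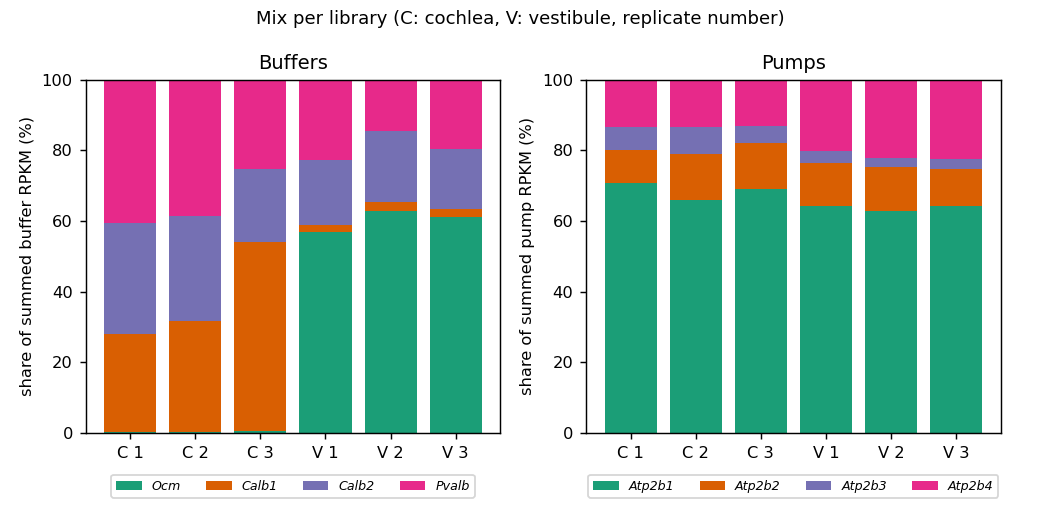
Share (%) of each gene in the summed RPKM, with merged exons as gene length, of the 4 buffer genes (left) and of the 4 pump genes (right). Each library is 1 stacked bar. Ocm fills 57.0% to 62.8% of the buffer bars in the vestibule and under 1% in the cochlea, while Atp2b1 fills 62.8% to 70.7% of the pump bars in all 6 libraries.

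The other genes that move or bind calcium were described as 3 lists. The other calcium clearance genes are exchangers and pumps of the plasma membrane, the stores, the Golgi and the mitochondria. Of 21 listed 18 were tested, and 1 was higher in the cochlea and 4 in the vestibule, a share of 27.8% against the 27.4% of all genes, with a median log2 difference of 0.094. Slc24a3, a sodium, calcium and potassium exchanger, was the call in the cochlea, at 53.3, 65.5 and 51.6 CPM against 21.2, 17.6 and 19.9 CPM in the vestibule (log2 difference −1.66 ± 0.16, SE, n = 3; edgeR adjusted p = 0.000123). Atp2c2, a pump that loads calcium into the Golgi, was at 5.56, 5.10 and 5.65 CPM in the cochlea and 68.1, 51.7 and 44.8 CPM in the vestibule, the largest rise of the list (log2 difference 3.21 ± 0.17, SE, n = 3; edgeR adjusted p = 5.79e-06). The exchanger gene Slc24a5 (1.97 ± 0.29; edgeR adjusted p = 0.00119) and the calcium store pump gene Atp2a3 (1.71 ± 0.16; edgeR adjusted p = 0.000108) also rose in the vestibule. Atp2a1, the store pump of fast muscle, was at 8.49 CPM in cochlear replicate 3 and at 0.123 to 1.31 CPM in the other 5.

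The second list held 32 other EF-hand proteins, most of them calcium sensors. Of the 27 tested 6 were higher in the cochlea and 9 in the vestibule, 55.6% against 27.4% of all genes, with a median log2 difference of 0.33. Vsnl1 (log2 difference −2.53 ± 0.72; edgeR adjusted p = 0.0314), Necab1 (−2.32 ± 0.51; edgeR adjusted p = 0.00933) and Hpca (−1.23 ± 0.36; edgeR adjusted p = 0.0343), which encode sensors known from neurons, were the largest in the cochlea, and the part of the neuron content in them was not tested. Cabp7 (2.31 ± 0.27; edgeR adjusted p = 0.000364), Necab3 (1.65 ± 0.23; edgeR adjusted p = 0.000906) and Hpcal4 (1.61 ± 0.41; edgeR adjusted p = 0.0183) were the largest in the vestibule. Cabp7 and Hpcal4 were below 1 CPM in every cochlear library, so that they passed the filter on their vestibular libraries alone, as Ocm did. The 6 calls in the cochlea became 3 without cochlear replicate 1 or 2, and 2 without vestibular replicate 2. Scgn, Cabp2, Cabp4 and Cabp5 had no count in any library.

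The last list held 17 genes for release from and refilling of calcium stores. Of the 12 tested 1 was higher in the cochlea and 2 in the vestibule, a share of 25.0% against the 27.4% of all genes, with a median log2 difference of −0.051. Itpr1, a release channel of the stores, averaged 41.1 CPM in the cochlea and 175 CPM in the vestibule (log2 difference 1.96 ± 0.34, SE, n = 3; edgeR adjusted p = 0.00292). Stim1, which senses the filling of the stores, was higher in the vestibule by 0.61 ± 0.13 (edgeR adjusted p = 0.00912). Orai2, a channel subunit that refills them, was the call in the cochlea (−0.50 ± 0.13; edgeR adjusted p = 0.0198), and this list had 0 cochlear calls without cochlear replicate 2 and without each of the 3 vestibular libraries.

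**Figure D5:**
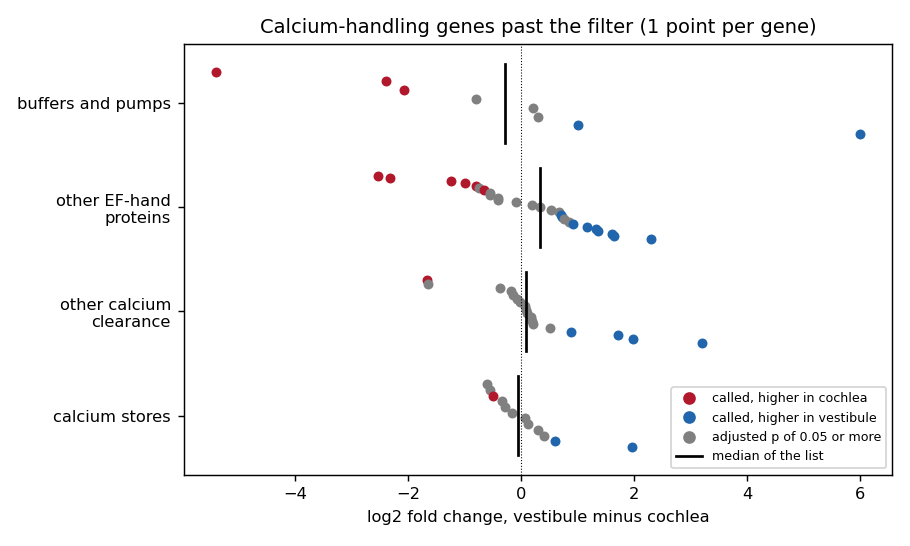
Log2 fold change (vestibule minus cochlea) of the tested genes among the 8 buffer and pump genes and 3 further lists, 1 point per gene, coloured by the call at an adjusted p below 0.05, with a line at each list's median. The 18 clearance genes have a median of 0.094, the 27 other EF-hand genes 0.33 and the 12 store genes −0.051, and Ocm and Calb1 are the outermost points.

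The genes most like each of the 8 were those with the smallest root mean square difference from it in log2 CPM, centred on each gene's mean over the 6 libraries. For Ocm they were Tyrp1 (0.25), 1700012P22Rik (0.32) and Slc34a2 (0.36). Each of these was below 1 CPM in every cochlear library, so that it passed the filter on its vestibular libraries alone, as Ocm did. Tyrp1, an enzyme of pigment cells, was at 0.327, 0.451 and 0.924 CPM in the cochlea and 36.9, 33.6 and 55.3 CPM in the vestibule, close to Ocm in level as well. For Calb1 they were Gm43517 (0.33), Syt6 (0.39) and Clu (0.39), of which Gm43517 passed the filter on its cochlear libraries alone.

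For Calb2 the nearest were Ppp1r14c (0.11), Tmem74b (0.16) and C1ql3 (0.18), and for Pvalb they were Serpini1 (0.24), Necab1 (0.26) and Tmem74b (0.26). Tmem74b was near to both, and like both it was lowest of the cochlear libraries in replicate 3, at 2.57 CPM against 6.87 and 5.10 CPM. The first gene of each pump lay closer than that of any buffer, though Car11 below was farther from Atp2b3 than Ppp1r14c from Calb2. The genes nearest to Atp2b1 were Loxl3 (0.048), Madd (0.049) and Aebp2 (0.049), and those nearest to Atp2b2 were Nthl1 (0.047), Ddx23 (0.053) and Lrrk1 (0.054). Atp2b3 was nearest to Hcn3 (0.079), Ube3a (0.089) and Car11 (0.14), and Atp2b4 to Apcdd1 (0.066), Rapgef5 (0.067) and Kirrel3 (0.067).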

How the data were processed

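RNA was measured in 3 cochlear and 3 vestibular libraries, made with a stranded mRNA kit and sequenced as paired reads of 100 bases. Per the submitters' processing notes, reads were aligned to GRCm38 with TopHat2 2.1.0 and handled with SAMtools 0.1.18, HTSeq 0.5.4p5 and edgeR 3.4.2. The authors deposited whole-number counts per Ensembl gene with no normalization, and for their filtered genes a log2 RPKM matrix, used here as an alternative for levels. The strand setting of the counting is not given in the sources used here. Of the listed counts 18.5% to 20.6% lay in 5 summary lines of no gene, which were left out throughout. Symbols, lengths and coordinates are from GENCODE vM21, which named 37607 of the 39179 identifiers and is later than the Ensembl release of GRCm38 that the study's methods name as the reference.

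The test was run in R 4.3.3 with edgeR 4.0.16 on all genes that reached 1 CPM in any 3 libraries (TMM, quasi-likelihood test, no block, Benjamini-Hochberg adjustment, threshold 0.05). A run on simulated counts gave every gene the same spread between libraries, so it cannot speak to spread that differs between genes, and nothing here rests on it. The SE is the unshrunk log2 fold change divided by the root of the F statistic. Sums and shares of RPKM used library sizes without TMM and a two-sided exact permutation test in scipy 1.17.1. Likeness used log2 CPM with a prior count of 0.5. Pairs of libraries of a tissue differed by a chi-square per degree of freedom of 31.0 to 111, so none was dropped as a repeat of another. That value cannot show whether the libraries came from separate RNA pools. Alternatives were DESeq2 1.42.0 and its size factors, no TMM, no filter, limma-voom (limma 3.58.1), edgeR's exact test, a replicate block, other gene lengths, and leaving out each library in turn.

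The 8 genes and all gene lists were chosen with earlier results of these data known. Named were the 8 genes, both pump partners, the 3 largest calls in each direction of each calcium list, the 3 genes most like each of the 8, and marker genes a value turns on. Atp2a1, Nefm, the muscle markers and the genes of no count were named after their values were seen. The sequence of 1 pump site is not reported here.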

Additional observations from a re-analysis of the deposited data

How the results depend on the processing

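Alternatives were run for the log2 differences of the 8 genes, the counts of calls, and the sums and shares, and not for single genes of the other lists. Of these none changed direction except the share of Atp2b2, whose difference between the tissues lay near 0 throughout, from −1.26 to 0.56 percentage points, and was negative in some alternatives and positive in others. The median log2 difference of all genes, 0.0048, was −0.014 with the size factors of DESeq2. The calls of Calb1, Calb2, Pvalb and Atp2b4 held in all 13 alternatives and that of Ocm in all 10 in which it could be tested. With any vestibular library left out Ocm falls below the filter, which needs 3 libraries, so that the members called in the vestibule ranged from 1 to 2 when single libraries were left out. Those called in the cochlea ranged from 3 to 4, as Atp2b3 passed without cochlear replicate 3 and without vestibular replicate 1. Over all genes leaving out single libraries gave 925 to 1863 calls in the cochlea and 1342 to 2694 in the vestibule, with the 1711 cochlear calls falling most without cochlear replicate 2 (1035) or vestibular replicate 2 (925), and the 2325 vestibular calls without vestibular replicate 1 (1522) or 2 (1342). Other EF-hand genes called in the cochlea ranged from 2 to 7, and store genes called in the cochlea from 0 to 2. The number of store genes called in the cochlea, 1, was 0 without TMM, 3 without the filter and 2 by DESeq2. The difference in share between the tissues was −1.92 percentage points for Atp2b3 and 5.10 for Atp2b4 with the longest transcript as gene length. With the authors' RPKM it was −1.86 for Atp2b3, 6.34 for Atp2b4 and 57.6 for Ocm (59.9 with merged exons). The causes of these changes were not tested.

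Libraries with the same replicate number did not deviate together (correlation of deviations −0.18, −0.26 and −0.48 over 14723 genes), so the numbers were not taken as pairs. Between libraries of different number the correlations ran from −0.27 to 0.41, the highest for cochlear replicate 3 with vestibular replicate 2. Whether these share a source was not tested. A fit with a replicate block called 1009 genes in the cochlea and 1609 in the vestibule, 3 other EF-hand genes and 0 store genes in the cochlea, and changed none of the calls of the 8 genes.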

Other observations

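Vsnl1, Necab1 and Hpca were, like Calb2 and Pvalb, lowest of the cochlear libraries in replicate 3. Vsnl1 was at 21.7, 19.6 and 5.03 CPM in the cochlear and at 5.17, 0.545 and 2.98 CPM in the vestibular libraries, and Necab1 at 11.2, 8.16 and 2.74 CPM and at 2.20, 1.01 and 1.57 CPM. Hpca was at 6.79, 7.29 and 2.87 CPM in the cochlea and at 3.12, 2.22 and 2.51 CPM in the vestibule. For Vsnl1 and Hpca cochlear replicate 3 lay below vestibular replicate 1. The pattern was seen in the values and was not tested.

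The remaining marker lists are given as counts of calls. Of 5 Schwann cell markers 3 were higher in the vestibule, of 4 dark cell markers 3, and of 10 mesenchyme and cartilage markers 4, with 2 higher in the cochlea. These are 60.0%, 75.0% and 60.0% called in either direction, against 27.4% of all genes tested. Of 4 outer hair cell markers 1 was higher in each tissue, Slc26a5 in the cochlea and Lbh in the vestibule. Slc26a5 passed the filter on its cochlear libraries alone, so that the filter set the direction of its call. Of the 6 skeletal muscle markers tested 1 was higher in the cochlea, and of 5 red blood cell markers none passed edgeR's test in either direction, nor had any an unadjusted p below the threshold (0 of 5).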
